A study of Mus musculus with 70 samples.

Results

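The 9 genes described here handle vitamin A and its active product, retinoic acid. They were chosen by gene symbol as *Lrat*, *Rbp4*, *Aldh1a1*, *Aldh1a2*, *Aldh1a3*, *Rdh10*, *Stra6*, *Crabp1* and *Crabp2*, out of 22835 genes in the pituitary RNA-seq table, by a rule that uses no measured value but was written with earlier results of these data known. For each gene the transcript with the highest mean level was used. RNA was measured in 18 libraries, each from a pool of 3 whole pituitaries of adult male mice on a C57BL/6J background. All mice drank 0.05% methimazole (MMI) with 1% KClO4 for 4 or 5 weeks, which blocks thyroid hormone synthesis. The hypothyroid groups received nothing else (4 wild-type and 5 *Thrb*-KO libraries), and the hyperthyroid groups also received T3, the active thyroid hormone, at 0.5 μg/ml for the final week (4 wild-type and 5 *Thrb*-KO libraries). *Thrb*-KO mice carry a germline disruption of *Thrb*, the gene of thyroid hormone receptor β (TRβ). The peak lists came from other male mice. TRβ-HAB ChAP-seq, a chromatin purification through a biotin tag, used untreated ThrbHAB/HAB; Rosa26BirA/BirA mice (HAB;BirA) and Rosa26BirA/BirA controls (BirA), with 3 libraries each in pituitary and in cerebral cortex. The control libraries are named BirA in their titles, but their genotype label is that of the HAB;BirA mice, so that every read count and fold against the control rests on the titles. ATAC-seq, an assay of open chromatin, used hypothyroid and hyperthyroid Rosa26Sun1-GFP; Thrb2-Cre mice, in which nuclei are tagged only in cells with activity of the *Thrb* b2 promoter.

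Retinol is stored as esters made by lecithin retinol acyltransferase (LRAT), is carried in blood by retinol-binding protein 4 (RBP4) and can enter cells through the membrane receptor STRA6. RDH10 oxidises retinol to retinaldehyde, the ALDH1A enzymes oxidise retinaldehyde to retinoic acid, and the CRABP proteins bind retinoic acid inside the cell. Retinoic acid then acts through RAR receptors, which, like TRβ, pair with RXR on DNA. In the pituitary, *Aldh1a* enzymes are known from development and from subsets of adult cells.

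Recovered library sizes ran from 21453548 to 55273749 reads (median 34673225), so that 3 reads corresponded to 0.0543 to 0.140 CPM, the counts of a transcript scaled to a common library size. *Thrb* itself, at 239 to 297 CPM in hypothyroid wild type and 72.4 to 124 CPM in hyperthyroid wild type, was no lower in *Thrb*-KO libraries, as labelled (239 to 295 CPM hypothyroid, 228 to 301 CPM hyperthyroid). In hyperthyroid mice it was higher in *Thrb*-KO, without overlap (ratio of means 2.5). The RNA level thus shows no loss of *Thrb* in *Thrb*-KO, and the genotypes rest on the labels. Replicates 1 and 2 of every group differed from replicates 3 to 5, for example in *Lars2* (2570 to 3420 CPM in the former, 53.2 to 95.1 CPM in the latter), and values within each set are given beside the called results of the 9 genes. Hyperthyroid wild-type replicate 3 stood apart, with a correlation as low as 0.915 to another library of its group. Calls on the 9 genes that change without it are named, and calls on other genes were not checked without it. Markers of pituitary hormone cells were high in every library, with *Gh* and its companion somatotroph marker summing to 48400 CPM or more.

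A gene was called when limma gave a Benjamini-Hochberg adjusted p below 0.05 over all genes tested and the groups differed at least 1.5-fold on the scale of log2(CPM + 1). Of the 9 genes, 5 passed 1 CPM in all 18 libraries and were tested among 13145 genes. *Lrat* and *Crabp2* passed 1 CPM only in 4 or more libraries and were tested among 14472 genes. *Lrat* entered that test only through the group where it was high. *Aldh1a3* and *Crabp1* passed neither limit and are given as levels.

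Levels per kilobase used the length of the longest coding GENCODE transcript of each gene, which need not be the transcript that was counted. Per kilobase, *Rbp4* and *Aldh1a2* were the most abundant of the 9 genes in hypothyroid wild-type pituitary. Their levels were 24.9 ± 4.95 and 18.9 ± 1.05 CPM per kilobase (SD, n = 4). The order went on with *Rdh10* (4.89 ± 0.424), *Aldh1a1* (2.80 ± 0.228), *Stra6* (1.50 ± 0.370) and *Crabp2* (1.13 ± 0.280), and ended with *Crabp1* (0.0750 ± 0.0545), *Aldh1a3* (0.0681 ± 0.0292) and *Lrat* (0.0298 ± 0.0223). *Stra6* and *Crabp2* overlapped within their SDs, as did *Crabp1*, *Aldh1a3* and *Lrat*. In hyperthyroid wild-type pituitary the order changed, with *Aldh1a2* first (19.0 ± 0.127), then *Rbp4* (9.58 ± 3.91), *Aldh1a1* (4.61 ± 0.443) and *Rdh10* (2.52 ± 0.538). There *Lrat*, at 1.16 ± 0.746 CPM per kilobase, lay between *Stra6* (1.29 ± 0.243) and *Crabp2* (1.13 ± 0.608), and none of these 3 differed from its neighbour beyond the SD.

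**Figure D1:**
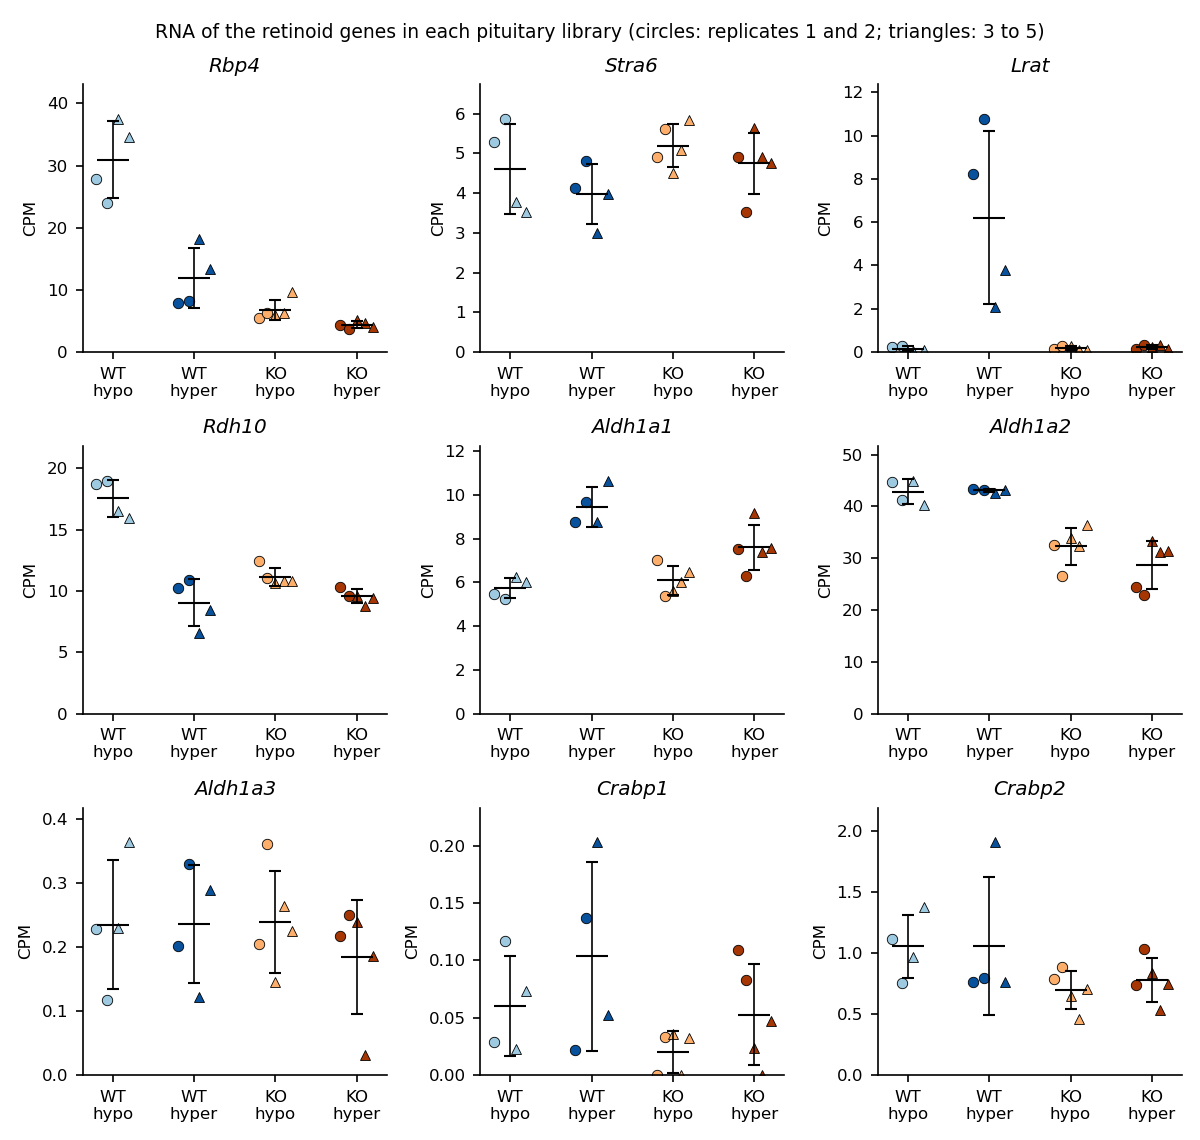
RNA level in CPM (vertical axes, each from 0) of the 9 genes in all 18 libraries, by genotype (WT, wild type; KO, *Thrb*-KO) and treatment (hypo, hypothyroid; hyper, hyperthyroid). Points are libraries, horizontal lines means and error bars SD. *Lrat* reached 2.07 CPM or more in the 4 hyperthyroid wild-type libraries only, and *Rbp4* was highest in the 4 hypothyroid wild-type libraries.

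T3 changed 4 of the 7 tested genes in wild-type pituitary. *Lrat* and *Aldh1a1* rose, and *Rbp4* and *Rdh10* fell, while *Aldh1a2*, *Stra6* and *Crabp2* were not called. *Lrat* entered the test only through the hyperthyroid wild-type libraries, so its place in this count is not independent of the filter. Over all genes tested, 9.46% were called in this comparison with 1 CPM in all libraries, and 10.4% with 1 CPM in at least 4 libraries. The median difference was -0.02 on the log2 scale over the 7 genes and -0.04 over all genes tested. In bulk tissue, fewer cells of a type and less RNA per cell cannot be told apart.

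*Lrat* (NM_023624; mm9, chr3:82696501-82707895, minus strand), the storage enzyme, showed the largest response. It was at 0.228, 0.292, 0.0459 and 0.0730 CPM in the hypothyroid wild-type libraries and at 8.23, 10.7, 2.07 and 3.77 CPM in the hyperthyroid ones. The groups did not overlap, and replicates 1 and 2 lay above replicates 3 and 4 in both. The reads behind these values numbered 22 over the hypothyroid and 952 over the hyperthyroid group. The ratio of the mean levels was 38.9, while the difference on the log2(CPM + 1) scale, which understates changes of low genes, was 2.45 ± 0.27 (SE; limma adjusted p = 1.9e-06). The edgeR quasi-likelihood test on recovered reads gave a log2 difference of 5.31 (adjusted p = 7e-07). The rise was called within replicates 1 and 2 (3.05) and within replicates 3 and 4 (1.85).

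In *Thrb*-KO pituitary *Lrat* stayed near the limit of counting. It was at 0.137, 0.295, 0.271, 0.0990 and 0.0959 CPM in hypothyroid libraries and at 0.136, 0.334, 0.238, 0.347 and 0.140 CPM in hyperthyroid ones. These groups overlapped, and the difference was 0.07 (95% interval -0.44 to 0.58; limma adjusted p = 1). The wild-type response exceeded the *Thrb*-KO response by 2.38 ± 0.37 (adjusted p = 0.000323), in a comparison that called 4.26% of all genes (5.13% with the wider set). Hyperthyroid *Thrb*-KO libraries lay 2.35 below hyperthyroid wild type on the same scale (log2 difference -2.35, adjusted p = 3.47e-06). Both were called within replicates 1 and 2 (3.03 and -3.08) and within replicates 3 to 5 (1.75 and -1.63).

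No listed peak lay within 20 kb of the *Lrat* gene body. The nearest listed region was a T3-regulated ATAC peak at chr3:82764235-82764377 (mm9), 56340 bases upstream of the gene and between genes, with the start of *Fgg* the nearest of a coding gene at 47404 bases. Whether it opened or closed with T3, and by how much, is not in the list. The peak was searched for a direct repeat of AGGTCA, the half-site bound by thyroid hormone, retinoid and RXR receptors, on both strands with spacers of 0 to 8 bases and at most 2 mismatches in 12 bases. It held 3 matches, each with a spacer of 4 bases, on the minus strand and starting at bases 1, 54 and 107 of the peak, in a stretch that is itself a tandem repeat. A match with this spacer was present in 31.1% of all 1776 ATAC peaks. The sequence is shown for these repeated matches, 5′ to 3′ on the plus strand, with both half-sites of each match in capitals, and with the listed start taken as the first base, which the list does not define.
Lrat upstream ATAC peak: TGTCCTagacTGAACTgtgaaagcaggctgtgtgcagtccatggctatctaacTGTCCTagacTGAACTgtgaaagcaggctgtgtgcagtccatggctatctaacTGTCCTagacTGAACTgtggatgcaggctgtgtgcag

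*Rbp4* (NM_001159487; chr19:38191110-38199811, minus strand), the retinol carrier, fell with T3 in wild type. Its level was 27.8, 24.0, 37.4 and 34.5 CPM in hypothyroid and 7.92, 8.22, 18.2 and 13.3 CPM in hyperthyroid wild-type libraries. No hyperthyroid library reached the lowest hypothyroid one. The mean fell from 30.9 ± 6.15 to 11.9 ± 4.86 CPM (SD, n = 4 each), a log2 difference of -1.36 ± 0.21 (SE; limma adjusted p = 0.000114). The difference was called within replicates 1 and 2 (-1.56) and within replicates 3 and 4 (-1.16).

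*Rbp4* was also the gene of the 9 with the lowest *Thrb*-KO level relative to hypothyroid wild type. It was at 5.43, 6.35, 6.01, 6.34 and 9.59 CPM in hypothyroid *Thrb*-KO and at 4.40, 3.76, 5.12, 4.64 and 4.01 CPM in hyperthyroid *Thrb*-KO libraries. Hypothyroid *Thrb*-KO libraries were therefore all below hypothyroid wild type, with a mean ratio of 0.218 and a log2 difference of -2.05 ± 0.20 (adjusted p = 2.29e-06). The genotype difference was -1.19 ± 0.20 in hyperthyroid mice (adjusted p = 0.000487), again without overlap. Each was called in both sets of replicates, the hypothyroid one at -1.96 (replicates 1 and 2) and -2.18 (replicates 3 to 5), the hyperthyroid one at -0.84 and -1.57. Within *Thrb*-KO the hypothyroid and hyperthyroid libraries did not overlap either, but the difference of -0.51 (95% interval -0.91 to -0.11) was not called (adjusted p = 0.319). The wild-type response differed from the *Thrb*-KO response by -0.85 ± 0.28, which was not called (limma adjusted p = 0.103). With the replicate number as a block the same value was called (limma adjusted p = 0.019), as it was with the set of replicates as a block (adjusted p = 0.00857). The difference was also called without hyperthyroid wild-type replicate 3 (-1.07, adjusted p = 0.0101) and within replicates 1 and 2 (-1.12, adjusted p = 0.000378). Within replicates 3 to 5 it was not called (-0.60, adjusted p = 0.282).

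A pituitary TRβ-HAB peak lay 6790 bases upstream of *Rbp4*, at chr19:38206601-38206750, between genes and 521 bases from the start of *Pde6c*. It held 13 reads in merged HAB;BirA and 1 read in merged BirA libraries, 10.8-fold by the authors' scaling, against a median fold of 10 over the list. Of the listed pituitary peaks, 14.1% had fewer reads, so the peak stood among the weaker ones. No cortex peak lay within 20 kb, and the nearest was 30310 bases downstream. No AGGTCA repeat with up to 2 mismatches was found in these letters, against a match in 43.2% of all 8051 pituitary peaks. The sequence is given because it is the only listed region near the second most T3-responsive of the genes.
Rbp4 upstream pituitary TRβ-HAB peak: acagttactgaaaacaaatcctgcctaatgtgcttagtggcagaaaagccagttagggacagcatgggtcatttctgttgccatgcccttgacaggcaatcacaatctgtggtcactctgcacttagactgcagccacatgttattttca

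*Rdh10* (NM_133832; chr1:16095855-16123815, plus strand), which makes retinaldehyde from retinol, was highest in hypothyroid wild type. The 4 libraries there were at 18.7, 19.0, 16.5 and 16.0 CPM, and those of hyperthyroid wild type at 10.2, 10.9, 6.57 and 8.48 CPM. In *Thrb*-KO it was at 12.4, 11.1, 10.6, 10.8 and 10.8 CPM without T3 and at 10.4, 9.60, 9.60, 8.77 and 9.46 CPM with T3. All hypothyroid wild-type libraries thus exceeded every other library. The T3 difference in wild type was -0.90 ± 0.12 (adjusted p = 1.25e-05), and it was called within replicates 1 and 2 (-0.78) and within replicates 3 and 4 (-1.03). In *Thrb*-KO the difference was -0.20 (95% interval -0.42 to 0.01; adjusted p = 0.701).

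The *Rdh10* responses of the genotypes differed by -0.70 ± 0.16 (limma adjusted p = 0.0101). Without hyperthyroid wild-type replicate 3, the lowest library, the value was -0.57 and missed the 1.5-fold limit (adjusted p = 0.00549). It also missed that limit within replicates 1 and 2 (-0.57, adjusted p = 0.0154) and with a pseudocount of 4 (-0.57, adjusted p = 0.00681), and it was called within replicates 3 to 5 (-0.83, adjusted p = 0.0168). Hypothyroid *Thrb*-KO lay below hypothyroid wild type by -0.61 ± 0.11 (adjusted p = 0.00154), just past 1.5-fold. That call was lost without hypothyroid wild-type replicate 1 (-0.58) or replicate 2 (-0.57) and within replicates 3 to 5 (-0.55, adjusted p = 0.0161), and it was kept within replicates 1 and 2 (-0.64). In hyperthyroid mice the genotypes differed by 0.09 (95% interval -0.14 to 0.32). A TRβ-HAB peak at chr1:16083251-16083450, 12405 bases upstream of *Rdh10*, held 29 reads against 4 in the control and lay wholly inside a cortex peak with 18 reads against 3. The pituitary peak covers the start of another gene, 4930444P10Rik, and held no AGGTCA repeat with up to 2 mismatches.

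*Stra6* (NM_001162476; chr9:57911595-58001803, plus strand), the retinol receptor, was not called in any comparison. Its levels ran from 3.52 to 5.86 CPM in hypothyroid and from 3.00 to 4.81 CPM in hyperthyroid wild type, and from 4.51 to 5.85 and from 3.54 to 5.65 CPM in *Thrb*-KO. The groups overlapped, and the T3 difference in wild type was -0.16 (95% interval -0.47 to 0.15). Yet the locus had the most listed peaks of the 9 genes within 20 kb. Its annotated gene body was also the longest of the 9, so the span searched was the widest. Distances are counted from that body, which includes a long upstream transcript. Pituitary TRβ-HAB peaks lay 2645 bases upstream (chr9:57908501-57908950, in an intron of *Ccdc33*; 26 reads against 3) and inside the annotated gene body (chr9:57950001-57950200; 18 reads against 0). The latter overlapped a cortex peak of 16 reads against 2 by 100 bases and coincided with an intron of a long upstream *Stra6* transcript and an exon of *Ccdc33*. A further cortex peak, at chr9:57944501-57944950, held 12 reads against 1.

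Among the enzymes that make retinoic acid, *Aldh1a1* rose with T3 in wild type. It was at 5.45, 5.25, 6.24 and 6.02 CPM in hypothyroid and at 8.75, 9.70, 8.76 and 10.7 CPM in hyperthyroid wild-type libraries, without overlap. The difference was 0.63 ± 0.11 (limma adjusted p = 0.00023). Without hyperthyroid wild-type replicate 4 it was 0.58 (adjusted p = 0.00121), and within replicates 3 and 4 it was 0.58 (adjusted p = 0.0148), both just under the 1.5-fold limit, whereas replicates 1 and 2 gave 0.69 (adjusted p = 0.000872). The 5 *Thrb*-KO libraries without T3 ran from 5.37 to 7.04 CPM and those with T3 from 6.32 to 9.20 CPM, which overlapped (0.28, 95% interval 0.08 to 0.47; adjusted p = 0.24). The difference between the responses was 0.36 ± 0.14 and was not called (adjusted p = 0.199). Of the 50-base windows in the *Aldh1a1* transcript (NM_013467; chr19:20676451-20717952, plus strand), 151 of 2004 also occur in *Aldh1a7*, which was listed at a mean of 0.205 CPM or less in every group, so reads of the pair could be split only there.

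*Aldh1a2* (NM_009022; chr9:71063596-71144050, plus strand) did not respond to T3 in wild type but was lower in *Thrb*-KO pituitary. Hypothyroid wild-type libraries were at 44.8, 41.2, 44.9 and 40.4 CPM and hyperthyroid ones at 43.3, 43.2, 42.7 and 43.2 CPM (difference 0.01, 95% interval -0.23 to 0.24). *Thrb*-KO libraries were at 32.5, 26.6, 33.9, 32.3 and 36.3 CPM without T3 and at 24.4, 22.9, 33.3, 31.2 and 31.4 CPM with T3. All 10 *Thrb*-KO libraries lay below all 8 wild-type libraries. The genotype difference was -0.59 ± 0.11 in hyperthyroid mice, at the edge of the 1.5-fold limit (adjusted p = 0.0009). It missed the limit without hyperthyroid *Thrb*-KO replicate 1 (-0.54) or replicate 2 (-0.51) and within replicates 3 to 5 (-0.42, adjusted p = 0.0147), while replicates 1 and 2 gave -0.84 (adjusted p = 1.44e-05). In hypothyroid mice it was -0.40 ± 0.11 (adjusted p = 0.0272), below 1.5-fold.

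The third enzyme, *Aldh1a3* (NM_053080; chr7:73535778-73572403, minus strand), was at 0.0315 to 0.363 CPM over all 18 libraries, with group means of 0.185 to 0.239 CPM. No listed peak lay within 100 kb of *Aldh1a1* or *Aldh1a2*, and the nearest to *Aldh1a3* was a pituitary TRβ-HAB peak 47298 bases upstream. *Aldh1a2* thus carried most of the RNA of this enzyme step in each of the 4 groups on the per-kilobase scale, at 12.6 or more against at most 4.61 for *Aldh1a1* and 0.0695 for *Aldh1a3*.

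The binding proteins of retinoic acid were low. *Crabp2* (NM_007759; chr3:87752588-87757298, plus strand) was at 1.11, 0.758, 0.964 and 1.38 CPM in hypothyroid and at 0.765, 0.797, 1.91 and 0.759 CPM in hyperthyroid wild type, the third library of the latter lying above all others. It ran from 0.460 to 0.884 CPM in hypothyroid and from 0.536 to 1.03 CPM in hyperthyroid *Thrb*-KO, and all pairs of groups overlapped. The T3 difference was -0.02 in wild type (95% interval -0.34 to 0.29) and 0.07 in *Thrb*-KO (-0.21 to 0.34). *Crabp1* (NM_013496; chr9:54612555-54620917, plus strand) was at 0.203 CPM or less in every library, with at most 5 reads in any of them.

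*Crabp2* had a pituitary TRβ-HAB peak 9588 bases upstream, at chr3:87742751-87743000 in an intron of *Isg20l2*, with 13 reads against 1. The nearest start of a coding gene was that of *Rrnad1*, at 8112 bases. Of the listed pituitary peaks, 14.1% had fewer reads, so this peak too stood among the weaker ones. It was the single pituitary peak within 20 kb of the 9 genes that held an AGGTCA repeat with up to 2 mismatches. The repeat had a spacer of 4 bases and 1 mismatch, on the minus strand at bases 173 to 188 of the peak. Of the pituitary peaks of the same width, 19.1% (262 of 1369) held a match with this spacer and up to 2 mismatches. With at most 1 mismatch, as here, 3.94% of all 8051 pituitary peaks (317) held a match with this spacer. The plus strand of the peak is given below with the half-sites in capitals, because it lies within 20 kb of a gene whose RNA was not called.
Crabp2 upstream pituitary TRβ-HAB peak: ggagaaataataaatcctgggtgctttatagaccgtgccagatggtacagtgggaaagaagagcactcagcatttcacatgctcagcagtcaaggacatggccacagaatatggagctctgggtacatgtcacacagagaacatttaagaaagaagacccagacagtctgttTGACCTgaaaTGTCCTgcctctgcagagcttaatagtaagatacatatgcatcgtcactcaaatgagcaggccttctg

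Over the comparisons, no gene of the 7 was called for T3 in *Thrb*-KO pituitary, where limma called 1.01% of all genes (133 of 13145). At an unadjusted p below 0.05, 2 of the 7 would pass, and edgeR and DESeq2 on recovered reads called 0 and 0. In the difference between responses, 2 of 7 were called (*Lrat* and *Rdh10*, background 4.26%, or 5.13% with 1 CPM in at least 4 libraries). The call of *Rdh10* was lost under some alternatives, as given above. Between genotypes, 2 of 7 were lower in hypothyroid *Thrb*-KO (*Rbp4* and *Rdh10*, background 3.02%) and 3 of 7 in hyperthyroid *Thrb*-KO (*Lrat*, *Rbp4* and *Aldh1a2*, background 4.86%, or 5.65% with 1 CPM in at least 4 libraries), and none was higher in either. These contrasts share groups, so a gene such as *Lrat* enters several of them through the same 4 hyperthyroid wild-type libraries. Those libraries alone also took *Lrat* past the filter, so its place in these counts is not independent of it.

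**Figure D2:**
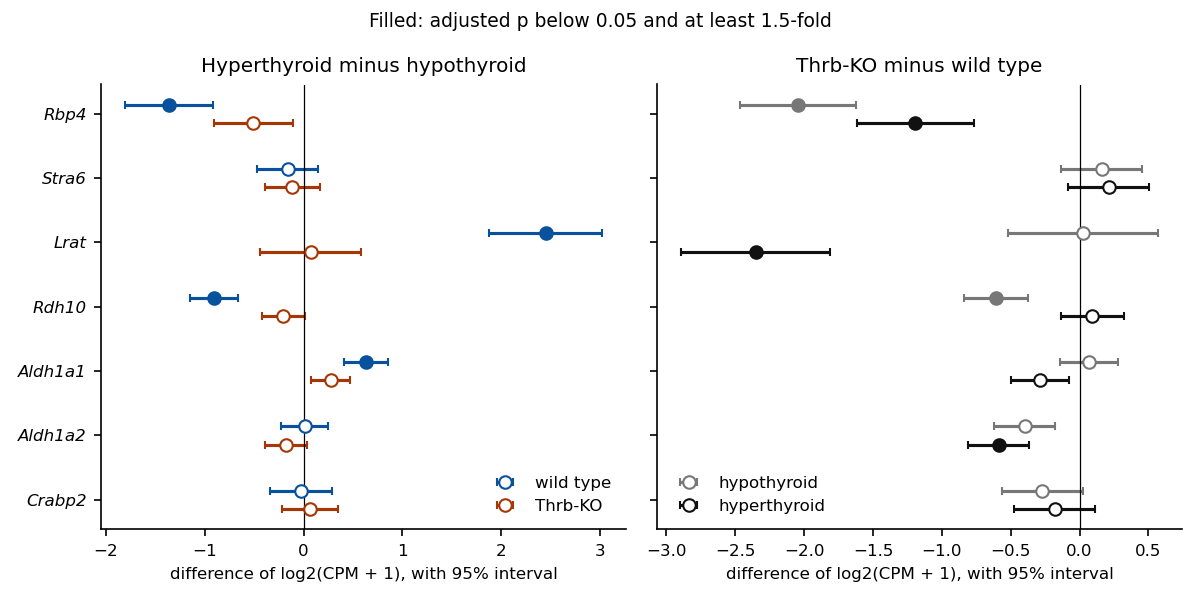
Differences of log2(CPM + 1) with 95% intervals (horizontal axes) for the 7 tested genes, for T3 treatment within each genotype (left) and for genotype within each treatment (right), from limma over 4 wild-type and 5 *Thrb*-KO libraries per treatment. Filled points were called. The response of *Lrat* was 2.45 in wild type and 0.07 in *Thrb*-KO.

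Among 13145 genes with a level in all libraries, listed pituitary TRβ-HAB peaks lay within 20 kb of 41.3% of the 12898 that could be placed on mm9, and cortex peaks of 34.8%. For the 9 retinoid genes this held for 4 (*Rbp4*, *Rdh10*, *Stra6* and *Crabp2*) and 3 (*Rdh10*, *Stra6* and *Crabp2*), and no T3-regulated ATAC peak lay that close to any, against 7.78% of the placed genes. *Lrat*, *Crabp2*, *Aldh1a3* and *Crabp1* did not pass the level limit of those placed genes, so the 9 genes and the background are unlike sets. Of the 5 pituitary peaks in question, those at *Rdh10* and inside the *Stra6* gene body overlapped a cortex peak. The share of all listed pituitary peaks that overlap one was not counted, so these overlaps are given as positions only.

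**Figure D3:**
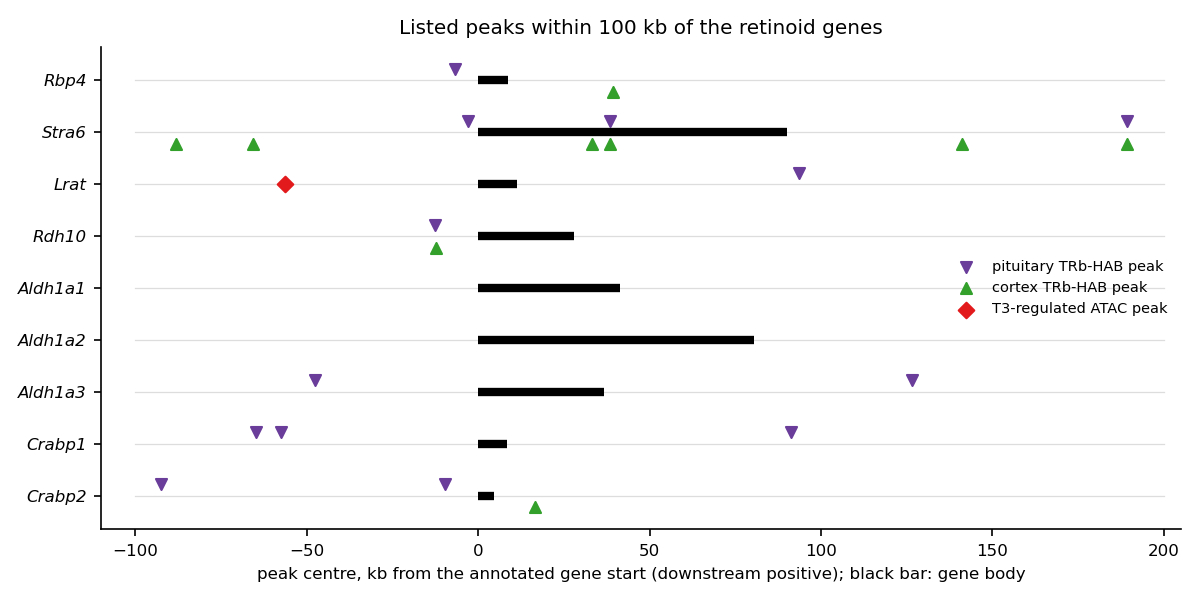
Centres of listed peaks within 100 kb of each gene body, in kb from the annotated start of the gene (horizontal axis), for pituitary TRβ-HAB (13 peaks), cortex TRβ-HAB (9 peaks) and T3-regulated ATAC (1 peak). *Aldh1a1* and *Aldh1a2* have none, and *Stra6* has the most.

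Of 49 other genes of retinoid binding, metabolism and signalling, 48 were in the table and 29 were tested in all libraries. T3 changed 4 of the 29 in wild type and 1 of the 29 in *Thrb*-KO, where 9.46% and 1.01% of all genes tested were called, so that neither count stands far from the background. *Ttr*, the transthyretin that carries RBP4 in blood, fell in both genotypes, from 12.5 to 2.02 CPM in wild type (log2 difference -2.17, limma adjusted p = 4.45e-07) and from 6.87 to 1.50 CPM in *Thrb*-KO (-1.65, adjusted p = 2.18e-05). *Rdh12*, a retinaldehyde reductase, fell from 10.0 to 5.05 CPM in wild type (-0.87, adjusted p = 5.08e-05) and was at 5.10 and 4.93 CPM in *Thrb*-KO. *Rara*, a retinoic acid receptor, rose from 10.2 to 19.1 CPM (0.86, adjusted p = 0.000377), and it was at 16.6 and 18.4 CPM in *Thrb*-KO. *Dhrs7*, of the same short-chain dehydrogenase family as *Rdh10*, rose from 23.4 to 37.4 CPM (0.62, adjusted p = 0.0029).

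The genotypes differed in their response for 3 of the 29, against 4.26% of all genes tested. *Rara* (0.72, limma adjusted p = 0.0469) and *Dhrs3*, a retinaldehyde reductase (0.63, adjusted p = 0.0394), had the more positive response in wild type. *Rdh12* fell more in wild type (-0.87) than in *Thrb*-KO (-0.04), a difference of -0.82 (limma adjusted p = 0.00532). *Dhrs3* was at 5.68 and 8.60 CPM in wild type and at 4.90 and 4.50 CPM in *Thrb*-KO. In hypothyroid *Thrb*-KO, *Ttr* and *Rdh12* were lower and *Rara* was higher than in wild type, 3 of 29 in all (3.02% of all genes tested). In hyperthyroid *Thrb*-KO, *Dhrs3* and *Tgm2*, a transglutaminase known to respond to retinoic acid, were lower, 2 of 29 (4.86% of all genes tested). *Rdh16* passed only the limit of 1 CPM in at least 4 libraries, and it did so through *Thrb*-KO libraries, where it was high. Its call is therefore not independent of the filter. It was at 1.80 CPM in hypothyroid *Thrb*-KO against 0.517 CPM in wild type, and at 1.50 against 0.197 CPM in hyperthyroid mice. Limma called both differences (adjusted p = 3.32e-05 and 2.11e-06), where it called 513 and 817 of the 14472 genes passing this limit. The median log2 difference of the 29 was 0.06 for T3 in wild type and -0.02 in *Thrb*-KO, beside -0.04 and -0.01 for all genes tested.

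**Figure D4:**
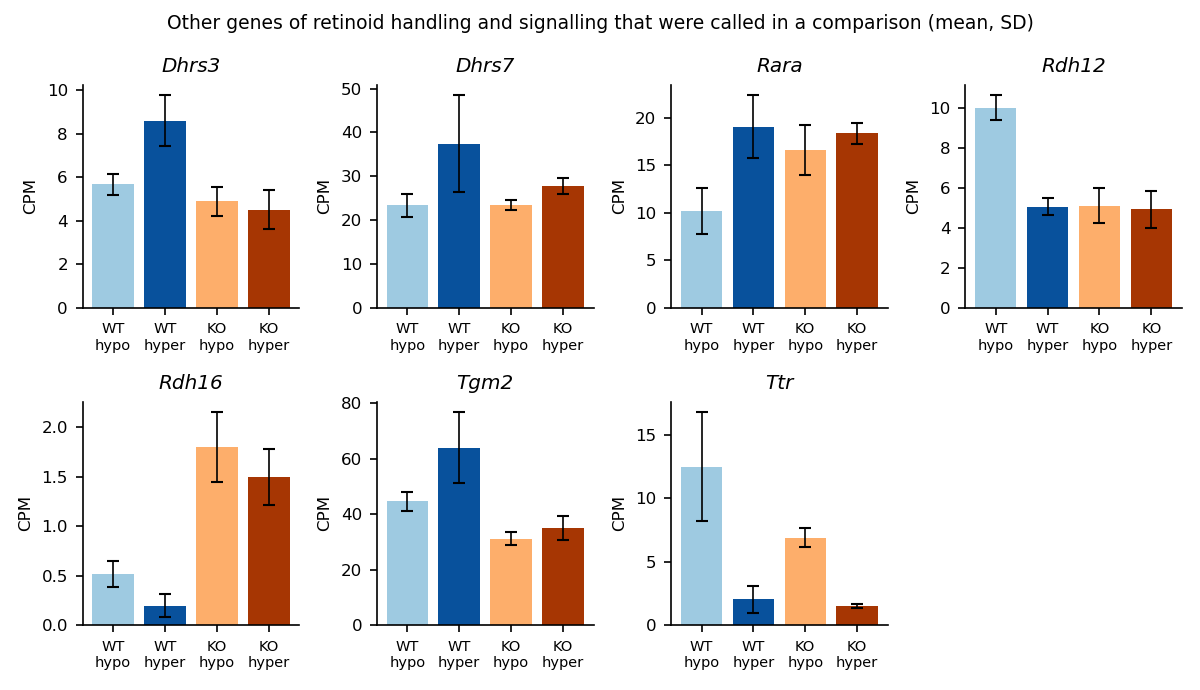
Mean RNA level in CPM with SD (vertical axes, bars from 0) of the 7 other retinoid pathway genes that were called in at least 1 comparison, in 4 wild-type and 5 *Thrb*-KO libraries per treatment (WT, wild type; KO, *Thrb*-KO; hypo, hypothyroid; hyper, hyperthyroid). *Ttr* fell with T3 in both genotypes, whereas *Rdh12* was at about 5 CPM in every group but hypothyroid wild type.

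The genes whose pattern over the 18 libraries was nearest to that of *Lrat* were *Cecr2*, *Myh7* and *Shc2*, with root-mean-square differences of 0.288, 0.300 and 0.319 in centred log2(CPM + 1) among 14471 genes (the spread of *Lrat* itself was 1.07). *Cecr2* was at 5.26 CPM in hypothyroid and 25.8 CPM in hyperthyroid wild type and at 4.97 and 5.17 CPM in *Thrb*-KO. The nearest to *Rbp4* were 2900011O08Rik, *Stac* and *Klhl1* (0.338, 0.382 and 0.416, against a spread of 0.985). 2900011O08Rik was at 12.0 and 5.80 CPM in wild type (log2 difference -0.96) and at 4.12 and 1.39 CPM in *Thrb*-KO, where it also fell (-1.08). All these genes were picked for their likeness over the same libraries, so their differences are not independent of that choice. *Stac* was at 8.44 and 2.20 CPM in wild type and at 1.22 and 1.19 CPM in *Thrb*-KO.

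Marker lists of cell types moved with T3 or genotype in part. Both thyrotroph genes fell with T3 in both genotypes, their sum going from 8880 to 17500 CPM to 1190 to 2070 CPM in wild type and from 8710 to 11200 CPM to 1450 to 1570 CPM in *Thrb*-KO. *Prl*, the lactotroph marker, rose in both genotypes, and 1 of 2 somatotroph genes rose in wild type. Of 4 tested immune genes, 2 were lower in hypothyroid *Thrb*-KO (sum 68.1 to 75.5 CPM in wild type and 38.2 to 47.3 CPM in *Thrb*-KO). Of 7 tested fibroblast and meningeal genes, 1 was lower in each of 2 comparisons, T3 in wild type and hypothyroid *Thrb*-KO against wild type (*Col1a1* and *Col1a2*), and their sums overlapped between all groups (254 to 412 CPM). Of 4 corticotroph and melanotroph genes, 1 was lower in hypothyroid *Thrb*-KO (*Pcsk2*), and *C1qa* of the immune list was also lower in hyperthyroid *Thrb*-KO. No tested gene of the gonadotroph, stem and folliculostellate, posterior lobe, endothelial, pericyte, red cell, or choroid plexus and retinal pigment epithelium lists was called by limma. The part of these cell types in the results above was not tested. The hepatocyte markers *Alb*, *Apoa1* and *Ahsg*, which come from the main source of blood RBP4 and TTR, summed to 0.137 to 1.22 CPM in the wild-type and *Thrb*-KO libraries.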

How the data were processed

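RNA was measured in whole pituitaries, and the authors mapped single-end reads to RefSeq transcripts of mm9 (BBMap by the methods, STAR by the labels) and deposited CPM per transcript. Whole reads were recovered from the CPM steps (100% of values whole within 0.01 reads), giving 21453548 to 55273749 reads per library. For ChAP-seq the authors merged libraries by genotype, called peaks with SICER 1.1 and deposited the count of HAB;BirA and BirA reads, a p-value and false discovery rate, and the fold ratio per peak. These counts come from merged libraries, so peaks have no replicate error. The deposited ATAC list gives an adjusted p-value of the authors' own comparison, which was not used.

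From CPM, log2(CPM + 1) was fitted with limma 3.58.1 (R 4.3.3; 4 group means, trend) over genes above 1 CPM in all 18 libraries, with Benjamini-Hochberg adjustment and a 1.5-fold limit. The script was tested on simulated data. edgeR 4.0.16 (quasi-likelihood, TMM) and DESeq2 1.42.0 were run on the recovered reads. Genes were placed with GENCODE annotation of mm9, and near means within 20 kb of the gene body. The text names the 9 genes, called genes of a pathway list, the 3 genes nearest to each of the 2 most T3-responsive ones, and *Thrb*. Marker lists covered hormone cells, stem, posterior lobe, vascular, fibroblast, immune, red cell, hepatocyte, choroid plexus and retinal pigment epithelium cells. 1 gene of the pathway list is not reported here. The 9 genes were chosen by symbol, and they and the lists were chosen with earlier results of these data known.

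Same-numbered libraries deviated together in all 25 pairs of libraries (correlation 0.13 to 0.815), so a fit with the replicate number as a block was run as an alternative to the unblocked fit. The labels do not say what a number shares, and 36 of 36 pairs of other numbers within a set (1 and 2, or 3 to 5) did so too. None of 60 pairs across the sets did so (correlation -0.779 to -0.243). Each library is a separate pool. The unblocked fit leaves the difference between the sets in the spread, so its p-values measure the spread between pools and sets.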

Additional observations from a re-analysis of the deposited data

Results flagged for a closer look

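In the interaction term of limma, *Lrat* rose more in wild type than in *Thrb*-KO (log2 difference 2.38, adjusted p = 0.000323). *Rdh10* fell more in wild type than in *Thrb*-KO (-0.70, adjusted p = 0.0101). *Lrat* passed the filter only through the hyperthyroid wild-type libraries, so its call is not independent of the filter. The call of *Rdh10* was lost under some alternatives, as given above.

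In 28 combinations of a tested gene and a group, 3 libraries lay far from the others of their group, where chance flags about 1 in 20. *Crabp2* was at 1.91 CPM in hyperthyroid wild-type replicate 3, the others being at 0.759 to 0.797 CPM. *Rbp4* was at 9.59 CPM in hypothyroid *Thrb*-KO replicate 5, the others at 5.43 to 6.35 CPM. *Rdh10* was at 12.4 CPM in hypothyroid *Thrb*-KO replicate 1, the others at 10.6 to 11.1 CPM.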

How the results depend on the processing

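For 13 single-gene results (the called ones, *Rbp4* in the difference between responses and *Aldh1a2* for genotype in hypothyroid mice), all of 400 values under the alternatives kept their direction and 380 kept their call. Of the other 22 results on the 7 tested genes, none called, 9 changed sign in 27 of 675 values, most often *Crabp2* for T3 in wild type (-0.20 to 0.08). The 14 calls lost were of *Aldh1a1*, *Aldh1a2* and *Rdh10*, with a limma adjusted p still below 0.05 but a change under 1.5-fold. The 6 gained were of *Rbp4* in the difference between responses and of *Aldh1a2* for genotype in hypothyroid mice, the latter without a fold limit. With the replicate block, *Rbp4* was called in the difference between responses (-0.85, limma adjusted p = 0.019), and no other call on the retinoid genes described above changed. Without a fold limit the genes called numbered 2536 for T3 in wild type, 235 for T3 in *Thrb*-KO, 901 for genotype in hypothyroid and 1586 in hyperthyroid mice. A pseudocount of 4 gave 259 genes, and 1 of the retinoid genes, for genotype in hypothyroid mice, where replicates 3 to 5 alone gave 628 and 1. In hyperthyroid mice these replicates gave 1114. Leaving out 1 library gave 1 to 2 retinoid genes for genotype in hypothyroid mice, with 1 remaining without wild-type replicate 1 or 2. Within 100 kb there were 13 pituitary, 9 cortex and 1 ATAC peaks, within 5 kb 2 pituitary and 2 cortex peaks, and at or above the median fold of each list 3 and 2. With 3 mismatches allowed, 4 of the 5 pituitary peaks within 20 kb held a repeat, as did 89.4% of all pituitary peaks. The cause of these changes was not tested. Ranking ATAC peaks by adjusted p was not run. Depth limits *Aldh1a3*, *Crabp1* and, outside hyperthyroid wild type, *Lrat*, where 3 reads are 0.0543 to 0.140 CPM. Falls and small changes could not be detected at such levels, whereas the rise of *Lrat* in wild type began at such a level and was called.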
